A study of Mus musculus with 8 samples.

Results

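The genes described here are Adipoq, Lpl, Pparg, Cebpa, Fabp4, Plin1, Cfd, Cd36, Ebf1 and Hp, a set of 10 markers of adipocytes and of the marrow stromal cells that precede them. They were chosen by symbol, and all 10 were among the 21154 genes of the deposited count table. Of these, 8 passed the filter on low counts and were tested, while Plin1 and Cfd did not and are given by their counts. The libraries hold RNA of GFP-positive cells sorted from bone chips, after removal of the marrow, from female Col2.3-GFP mice. In these mice a piece of the Col1a1 promoter drives green fluorescent protein, so the sort selects by promoter activity. The 5 DOX libraries came from mice given doxorubicin (DOX) intravenously at 5 mg/kg in 4 weekly injections, and the 3 PBS libraries from mice given phosphate-buffered saline in its place. All mice were 8 to 10 weeks old when treated and were studied 8 weeks after treatment. The labels give 2 batches: batch 1 holds DOX replicates 1 and 2 and PBS replicate 1, and batch 2 holds DOX replicates 3 to 5 and PBS replicates 2 and 3. DOX replicate 1 carries a treatment tag of PBS, but is DOX by its title and has a library name in the form of the other DOX libraries, so its values are given as DOX.

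Osteoblasts and marrow adipocytes descend from shared skeletal progenitors. The nuclear receptor PPARG and the C/EBP factors drive adipocyte differentiation, and PPARG opposes the osteoblast programme. In mouse marrow Adipoq, Lpl, Hp and Ebf1 are also expressed by reticular stromal cells that make the chemokine CXCL12 and carry few or no lipid droplets, whereas Plin1 and Cfd mark mature, lipid-storing adipocytes. Doxorubicin is an anthracycline chemotherapy drug.

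Factors that control adipocyte genes can bind near their starts or farther away, and the windows shown cover only the near part. The 3 promoters are of members that frame the results. They are Adipoq, the secreted marker with a clear library pattern, Pparg, the regulator, and Plin1, the droplet gene that was nearly absent. Each is the 250 bases before a RefSeq start in build GRCm38.p6, 5′ to 3′ on the strand of the gene. For Pparg it is the last of 3 annotated starts. Capitals mark matches to TTGCNNAA, a motif of C/EBP factors, or to its reverse complement.
Adipoq (chr16:23146286-23146535, plus strand): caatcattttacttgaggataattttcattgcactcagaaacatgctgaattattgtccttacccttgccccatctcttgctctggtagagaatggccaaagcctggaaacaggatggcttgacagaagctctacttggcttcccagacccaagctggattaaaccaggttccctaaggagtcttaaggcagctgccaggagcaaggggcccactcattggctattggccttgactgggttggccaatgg
Pparg (chr6:115421816-115422065, plus strand): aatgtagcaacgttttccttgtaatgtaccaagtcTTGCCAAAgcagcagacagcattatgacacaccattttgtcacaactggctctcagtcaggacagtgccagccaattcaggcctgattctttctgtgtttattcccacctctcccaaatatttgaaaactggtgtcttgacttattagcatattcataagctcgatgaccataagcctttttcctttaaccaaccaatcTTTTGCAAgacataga
Plin1 (chr7:79732777-79733026, minus strand): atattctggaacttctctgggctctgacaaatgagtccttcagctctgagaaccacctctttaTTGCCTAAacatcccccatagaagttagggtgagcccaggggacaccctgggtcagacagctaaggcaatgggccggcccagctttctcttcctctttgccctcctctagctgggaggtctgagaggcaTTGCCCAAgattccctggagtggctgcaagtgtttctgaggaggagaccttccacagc
The motif was matched at 2 places in this Pparg window and at 2 in the Plin1 window, and these letters are not in the Adipoq window. Over all 10 windows found for members, these 2 windows alone held a match, and the other 8, those of the other Pparg starts, Adipoq, Cebpa, Cfd, Cd36 and Ebf1, held 0. It was matched in 9.56% of all 32851 RefSeq windows of this length. Promoters were found for 7 of the 10 members, and not for Lpl, Fabp4 and Hp. The counts are per gene and do not tell which Pparg start was used.

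Library totals ran from 39419027 to 44151882 counts in DOX and from 40985302 to 44299591 counts in PBS. Levels are counts per 1000000 (CPM) on TMM-scaled library sizes. Col1a1 and Col1a2, the type I collagen genes of osteoblasts, took 23.2% to 35.5% of counts in DOX and 19.1% to 39.5% in PBS, and the 9 osteoblast markers summed to 211815 to 414712 CPM in DOX and 175046 to 522810.0 CPM in PBS. The collagen share was lowest in DOX replicate 1, at 23.2%, among DOX libraries and in PBS replicate 1, at 19.1%, among all libraries. The 10 members together summed to 106, 109, 52.0, 94.1 and 77.8 CPM in DOX replicates 1 to 5, against 140.4, 51.7 and 56.8 CPM in PBS replicates 1 to 3.

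Per exon length (GENCODE M21), the secreted proteins haptoglobin and adiponectin and the factor EBF1 led the set. Hp averaged 7.82 ± 6.45 CPM per kb, Adipoq 7.08 ± 5.33 and Ebf1 5.13 ± 0.934 (SD, n = 8 libraries), and these spreads overlapped. Cebpa followed at 1.16 ± 0.333 CPM per kb, below Ebf1 beyond their spreads. Then came Fabp4 at 0.675 ± 1.15, Lpl at 0.578 ± 0.576 and Pparg at 0.365 ± 0.294 CPM per kb, neighbours whose spreads overlapped. The length is the union of all annotated exons, 10478 bases for Lpl and 4489 for Fabp4, and the order depends on it. In CPM, Lpl averaged 5.47 in DOX and 7.05 in PBS, against 3.01 and 3.15 for Cebpa, with overlapping spreads. Cfd at 0.100 ± 0.113, Cd36 at 0.0805 ± 0.101 and Plin1 at 0.00750 ± 0.0125 CPM per kb came last. On the same scale Bglap, the osteocalcin gene, averaged 31316 ± 5561.

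Among the transcription factors, Ebf1 varied least. Ebf1, which encodes an early factor of stromal and B lineage cells, stood at 66.9, 44.2, 41.2, 55.0 and 51.6 CPM in DOX replicates 1 to 5, against 56.0, 40.1 and 45.3 CPM in PBS replicates 1 to 3. The highest library held 1.67 times the lowest, and the groups overlapped. The log2 fold change of Ebf1, DOX over PBS, was 0.13 ± 0.16 (SE), with a 95% interval of -0.23 to 0.49.

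Cebpa encodes a C/EBP factor of adipocytes that myeloid cells share. It stood at 2.10, 4.59, 2.58, 3.26 and 2.53 CPM in DOX and 3.91, 2.18 and 3.37 CPM in PBS, with overlapping groups and DOX replicate 2 highest. Its log2 fold change of -0.077 ± 0.32 (SE) had an interval of -0.78 to 0.63. Pparg was low throughout, at 1.74, 2.73, 0.689, 0.346 and 0.266 CPM in DOX and 1.60, 0.409 and 0.850 CPM in PBS. The 3 highest libraries for Pparg were those of batch 1, whichever their treatment. Its log2 fold change was -0.17 ± 0.53 (SE), within an interval of -1.35 to 1.01.

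The secreted proteins differed widely between libraries of the same treatment. Adipoq, which encodes the hormone adiponectin, stood at 13.4, 15.2, 1.82, 15.9 and 7.53 CPM in DOX, against 20.3, 2.54 and 1.56 CPM in PBS. DOX replicate 3 and PBS replicates 2 and 3 were low, the other 5 libraries were high, and both the highest and the lowest library were PBS. The log2 fold change of Adipoq was 0.95 ± 0.68 (SE), with an interval of -0.57 to 2.47.

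Hp encodes haptoglobin, the plasma protein that binds free hemoglobin. It stood at 9.60, 19.2, 3.79, 13.6 and 10.3 CPM in DOX and 34.6, 4.45 and 4.79 CPM in PBS. The libraries low for Adipoq were low for Hp too, and PBS replicate 1 was the highest. Its log2 fold change was 0.065 ± 0.52 (SE), and the interval ran from -1.09 to 1.22.

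Cfd encodes complement factor D, also called adipsin. DOX replicates 1 to 5 held 11, 9, 7, 0 and 5 counts of it, against 0, 0 and 0 counts in PBS replicates 1 to 3. Pooled over libraries, Cfd stood at 0.149 CPM in DOX. That was 6.21 times the 0.0240 CPM that a count of 0 over the PBS group allows (3 counts). The ratio takes in counting error of PBS alone, not that of DOX or the spread between libraries, so it is not a lower limit. DOX lay above PBS in 4 of 5 libraries, and the exact two-sided permutation test over libraries gave p = 0.107. Fitted with no filter, edgeR gave an unadjusted p of 0.0234 and an adjusted p of 0.998, and DESeq2 an unadjusted p of 0.0232 and an adjusted p of 1.00.

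The genes of lipid handling spanned the widest ranges. Lpl, which encodes the lipoprotein lipase that frees fatty acids from circulating triglycerides, stood at 10.1, 6.65, 1.18, 4.55 and 4.83 CPM in DOX and 18.8, 1.96 and 0.397 CPM in PBS. The libraries low for Adipoq were again the low ones, and all 5 DOX values lay inside the PBS range. For Lpl the log2 fold change was 0.38 ± 0.69 (SE), and its interval was -1.17 to 1.92.

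Fabp4 encodes a fatty acid carrier of adipocytes, capillary endothelium and macrophages. It stood at 2.10, 15.2, 0.0739, 1.41 and 0.410 CPM in DOX and 4.75, 0.0545 and 0.283 CPM in PBS. DOX replicate 2 was far above the rest, and the highest library held 278 times the lowest. Its log2 fold change was 1.38 ± 0.89 (SE), with an interval of -0.61 to 3.36. The fold change was 0.85 without DOX replicate 2 and 0.71 without DOX replicate 4.

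Cd36 encodes a fatty acid and scavenger receptor. Its counts were 0, 43, 20, 0 and 7 in DOX and 19, 0 and 8 in PBS, with libraries at 0 in both groups. Its log2 fold change of 0.79 ± 1.53 (SE) had an interval of -2.62 to 4.20, which spans large differences in both directions. Plin1, which encodes the perilipin that coats adipocyte lipid droplets, had 7, 0, 0, 0 and 1 counts in DOX and 0, 0 and 4 in PBS. The ratio of the pooled Plin1 levels, DOX over PBS, was 1.16, with a 95% exact binomial interval of 0.312 to 5.28. A difference in Plin1 was not detectable at this depth.

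**Figure D1:**
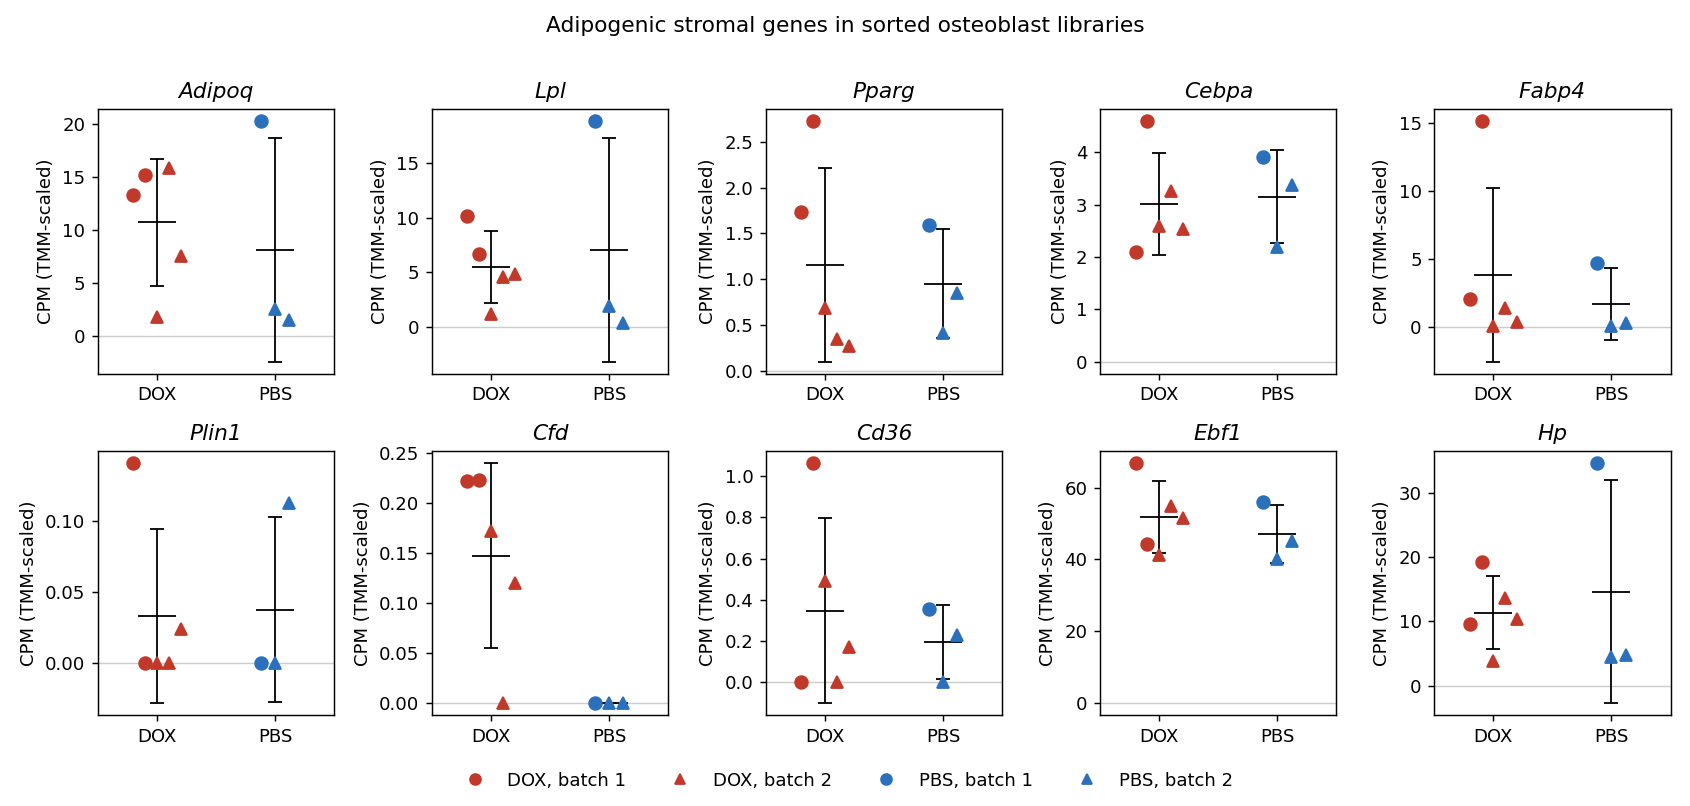
Level of each of the 10 genes (CPM, linear axes that differ between panels) in the 5 DOX and 3 PBS libraries, with 1 point per library, circles for batch 1, triangles for batch 2, and bars for the mean ± SD. The groups overlap in every panel, Cfd included, where DOX replicate 4 is at 0 with all PBS libraries, and PBS replicate 1 is the highest library for Adipoq, Lpl and Hp.

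None of the 8 tested genes passed between DOX and PBS. With batch and group as terms, edgeR's quasi-likelihood test called 0 of 8 members, each with an adjusted p of 0.995 over all genes, and 0% of the 15373 genes tested. At an unadjusted p under 0.05 it listed 0 of 8, against 3.71% of genes tested. DESeq2 called 26 genes of the table and 0 members. No tested member had every DOX library above every PBS library, which held for 1.24% of genes, or every DOX library below, which held for 1.19%. The median log2 fold change was 0.25 over the 8 members and 0.017 over all genes tested, with 6 of 8 members and 53.0% of genes above 0. In limma-voom the log2 fold change was 0.21 for Adipoq and 0.27 for Fabp4, and with no batch term in edgeR it was 0.39 for Adipoq and 1.15 for Fabp4. Without DOX replicate 1, whose labels disagree, the log2 fold change was 1.27 for Adipoq, 0.62 for Lpl, 0.43 for Hp and 1.80 for Fabp4; with that library counted as PBS it was 1.28 for Adipoq, 0.65 for Lpl, 0.57 for Hp and 2.01 for Fabp4, and no member passed either way. In bulk libraries, fewer cells of a type and less RNA per cell cannot be told apart.

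The sign of the treatment difference turned between batches for several members. In batch 1, Adipoq averaged 3.84 log2 CPM in DOX and stood at 4.35 log2 CPM in PBS, a difference of -0.51. In batch 2 it averaged 2.61 log2 CPM in DOX and 1.03 log2 CPM in PBS, a difference of 1.58. The same difference in log2 CPM was -1.19 in batch 1 and 1.68 in batch 2 for Lpl, and -1.35 in batch 1 and 0.81 in batch 2 for Hp. Pparg had the opposite signs, 0.44 in batch 1 and -0.51 in batch 2. PBS replicate 1 is the sole PBS library of batch 1, so each batch 1 difference rests on it.

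A DOX mean below PBS in batch 1 and above it in batch 2 was found for 6 of 8 members, against 29.3% of genes tested. Some of these rest on little. The batch 1 difference of Cd36 was -0.82 with DOX replicate 1 at 0 counts, while edgeR in batch 1 alone gave 0.56. Cebpa had 0.031 in batch 2 and Ebf1 -0.042 in batch 1, both near 0. The batch-by-treatment term, batch 2 minus batch 1 on the log2 scale, was 2.27 ± 0.76 (SE) for Hp, with an unadjusted p of 0.0150 and an adjusted p of 0.321 in edgeR. For Lpl it was 2.73 ± 1.06 (unadjusted p of 0.0294, adjusted p of 0.376), and for Adipoq 2.54 ± 1.07 (unadjusted p of 0.0410, adjusted p of 0.406). So 3 of 8 members had an unadjusted p under 0.05, against 11.7% of genes tested, and after adjustment 0 members passed, against 0% of genes. Lpl and Hp varied with Adipoq across libraries (r = 0.93 and 0.92), so counts of members are not counts of independent genes. Without PBS replicate 1 the DOX over PBS log2 fold change was 2.05 for Adipoq (adjusted p of 0.701), 1.58 for Lpl and 1.02 for Hp, and no member passed.

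**Figure D2:**
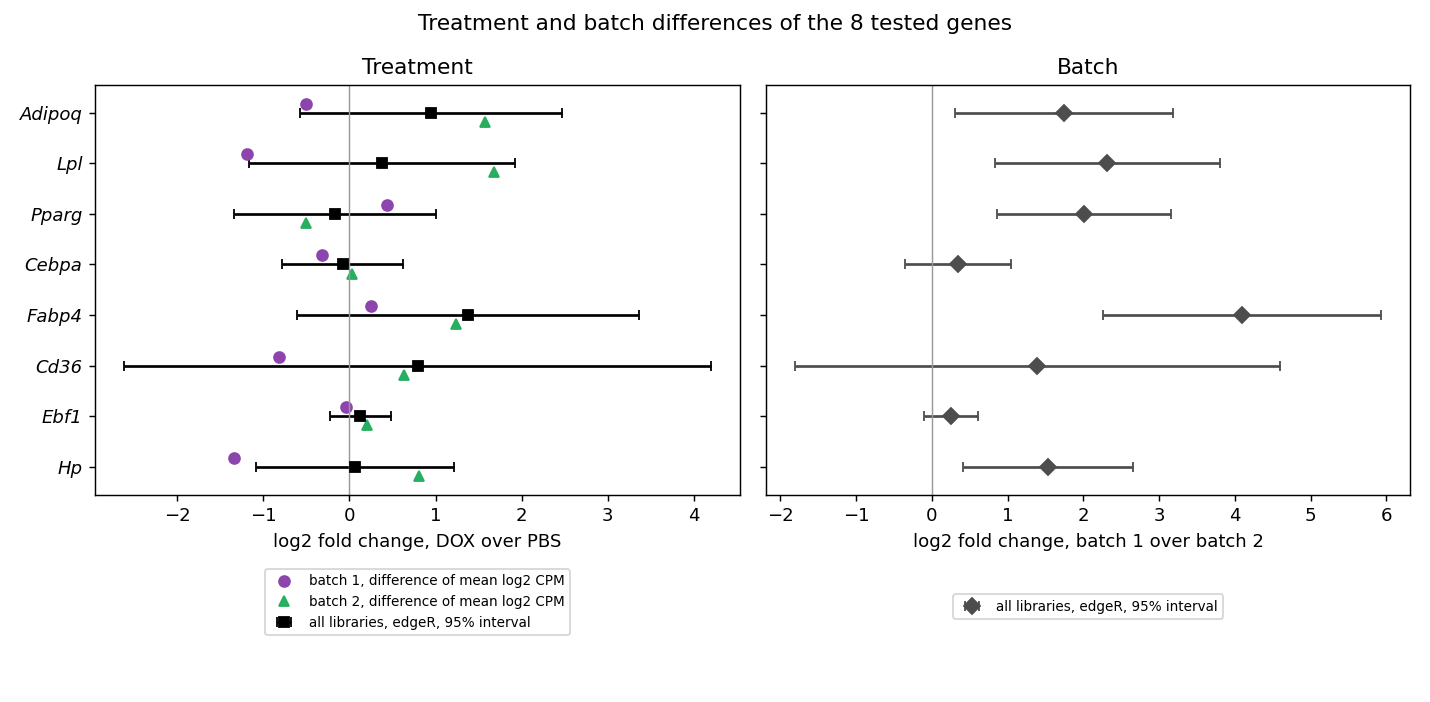
Left, log2 fold change of DOX over PBS for the 8 tested genes, with squares and bars for the edgeR estimate and its 95% interval over all libraries, and circles and triangles for the difference in mean log2 CPM within batch 1 and batch 2. Right, log2 fold change of batch 1 over batch 2 with 95% intervals. Every treatment interval includes 0, and the batch intervals of Adipoq, Lpl, Pparg, Fabp4 and Hp lie above 0 before adjustment.

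The members were also compared between batches, and none passed after adjustment. In the same edgeR fit, the log2 fold change of batch 1 over batch 2 was 4.09 ± 0.83 (SE) for Fabp4, 2.32 ± 0.67 for Lpl, 2.01 ± 0.52 for Pparg, 1.75 ± 0.65 for Adipoq and 1.53 ± 0.51 for Hp. These 5 of 8 members were higher in batch 1 at an unadjusted p under 0.05, against 7.79% of genes tested, and 0 of 8 were lower, against 6.82%. After adjustment 0 of 8 passed, with adjusted p from 0.103 for Fabp4 to 0.677 for Cd36, while 0.0585% of genes were called higher and 0.0325% lower. For Lpl, Pparg and Fabp4, 3 of 8 members, every batch 1 library lay above every batch 2 library, which held for 4.38% of genes tested. Cd36 had 1.39 ± 1.44, Cebpa 0.34 ± 0.31 and Ebf1 0.25 ± 0.16 on this scale. Without PBS replicate 1 the batch difference was 0.76 for Adipoq, 1.25 for Lpl, 0.63 for Hp, 2.36 for Pparg and 3.75 for Fabp4. Over all libraries the estimated batch difference was larger than the treatment difference for each tested member, and without PBS replicate 1 this order turned for Adipoq, Lpl, Hp and Ebf1 (0.22 for treatment and 0.17 for batch). The labels number the batches and do not say what differed between them.

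Endothelial markers were also high in batch 1 libraries. Their sum was 4.91, 27.7, 1.16, 1.99 and 1.76 CPM in DOX replicates 1 to 5, against 22.9, 1.91 and 1.90 CPM in PBS replicates 1 to 3. DOX replicate 2 and PBS replicate 1, with the highest sums, were also the libraries with the most Fabp4, and DOX replicate 2 had the most Cd36. Stab2, a scavenger receptor of sinusoidal endothelium, stood at 0.243, 4.94, 0, 0.162 and 0.193 CPM in DOX and 0.244, 0 and 0 CPM in PBS, with a log2 fold change of 3.75 ± 1.44 (SE, unadjusted p of 0.0263 in edgeR). Pecam1 and Flt4, the tested endothelial genes of highest mean, had -0.90 ± 0.53 and -1.36 ± 1.12. Of the 11 endothelial genes 7 were tested, 4 of 7 were above 0 for DOX over PBS, with a median of 0.012, and 6 of 7 were higher in batch 1 at an unadjusted p under 0.05, against 7.79% of genes tested. Cdh5, the defining endothelial cadherin, was at 0 in DOX replicate 3 and in PBS replicates 2 and 3. The part of endothelial RNA in the Fabp4 and Cd36 values was not tested.

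Macrophages can also express Lpl, Fabp4, Cd36 and Pparg. The 7 macrophage markers in the table, of 11, summed to 2.82 to 6.35 CPM in DOX and 2.27 to 4.68 CPM in PBS. C1qa, a defining marker, had counts in PBS replicate 1 alone, at 0.207 CPM. Csf1r and Cd68 had log2 fold changes of -0.33 ± 0.46 and 0.095 ± 0.59 (SE), and 2 of 4 tested markers were above 0, with a median of -0.0011. Erythroid markers summed to 111, 38.3, 6.43, 4.67 and 2.32 CPM in DOX and 157, 4.01 and 10.8 CPM in PBS, highest in the 3 batch 1 libraries. After adjustment 5 of 7 tested passed as higher in batch 1 in edgeR, against 0.0585% of genes tested. For DOX over PBS, 0 of 7 were above 0, with a median of -0.94. Hba-a1, an alpha globin gene, had -0.94 ± 0.41 (SE, unadjusted p of 0.0440 in edgeR), and Hbb-bs, a beta globin gene, -0.99 ± 0.45. The part of these cells in the members' values was not tested.

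Neutrophil markers, which matter here because myeloid cells express Hp and Cebpa, summed to 20.2 to 139.5 CPM in DOX and 11.9 to 55.7 CPM in PBS, with 8 of 9 tested above 0 and a median of 0.75. The log2 fold change was 0.28 ± 0.23 (SE) for the neutrophil collagenase gene Mmp8 and -0.46 ± 1.47 for the myeloperoxidase gene Mpo. Between batches, 4 of 9 were higher in batch 1 at an unadjusted p under 0.05 in edgeR, against 7.79% of genes tested. Another 1 of 9 was lower, against 6.82%, and 0 passed after adjustment. B cell markers, which matter because B lineage cells express Ebf1, summed to 2.33 to 22.3 CPM in DOX and 7.12 to 20.9 CPM in PBS. Of these 2 of 10 were above 0, with a median of -0.57. The adaptor gene Blnk had -0.89 ± 0.37 (SE, unadjusted p of 0.0383 in edgeR) and Cd79a, a chain of the B cell receptor, 0.11 ± 0.74. Of the B cell markers 7 of 10 were lower in batch 1 at an unadjusted p under 0.05 in edgeR, against 6.82% of genes. None was higher, against 7.79%, and 0 passed after adjustment. The part of neutrophil and B lineage RNA in the Hp, Cebpa and Ebf1 values was not tested.

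Megakaryocytes and platelets carry CD36. Their markers summed to 2.16 to 12.8 CPM in DOX and 0.368 to 25.2 CPM in PBS, 4 of 4 tested were above 0 and the median was 0.98. The platelet chemokine genes Ppbp and Pf4 had log2 fold changes of 1.01 ± 1.28 and 1.13 ± 1.38 (SE). Skeletal muscle markers summed to 0.298 to 4.97 CPM in DOX and 2.42 to 4.28 CPM in PBS, with 1 of 3 tested above 0 and a median of -0.34. The muscle genes Myl1 and Atp2a1 had -0.34 ± 0.70 and -1.20 ± 0.68. The part of these cells in the members' values was not tested either.

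Across libraries, the pattern most like that of Adipoq was that of Cxcl12. Likeness was the Pearson r of log2 CPM over the 8 libraries, searched in 7919 genes outside the set with a mean log2 CPM of 3 or more, and r was 0.98 for Cxcl12. Cxcl12, whose product retains blood stem cells in marrow, stood at 383, 343, 91.2, 363 and 265 CPM in DOX and 606, 142 and 73.2 CPM in PBS. As for Adipoq, DOX replicate 3 and PBS replicates 2 and 3 were its low libraries. The next genes were Foxp1, a forkhead factor, with r = 0.97, the lipid phosphatase gene Plpp3 with 0.95, Stard3nl with 0.94 and the protein phosphatase gene Ppm1d with 0.94. In all, 20 genes had an r above 0.9. The libraries share batches and fall into 3 low and 5 high ones for Adipoq, and neither set holds 6, so these r are a description with no test.

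Among the members, Lpl (r = 0.93, Spearman rho = 0.83) and Hp (r = 0.92, rho = 0.88) were most like Adipoq, followed by Fabp4 (r = 0.86, rho = 0.79) and Ebf1 (r = 0.70, rho = 0.60). Without DOX replicate 3 and PBS replicate 3, the libraries farthest from the Adipoq median, r was 0.84 for Lpl, 0.88 for Hp, 0.88 for Fabp4 and 0.64 for Ebf1. With batch means removed it was 0.85 for Lpl, 0.84 for Hp, 0.70 for Fabp4 and 0.57 for Ebf1. Cebpa had r = 0.38 (rho = 0.33) over all libraries, 0.64 without DOX replicate 3 and PBS replicate 3, and 0.18 with batch means removed. Pparg had r = 0.37 (rho = 0.21) over all libraries, 0.55 without DOX replicate 3 and PBS replicate 3, and -0.75 with batch means removed. In batch 2, DOX replicates 4 and 5 had the least Pparg and the most Adipoq. Plin1, Cfd and Cd36, each at 0 in some libraries, had too few counts for this measure.

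**Figure D3:**
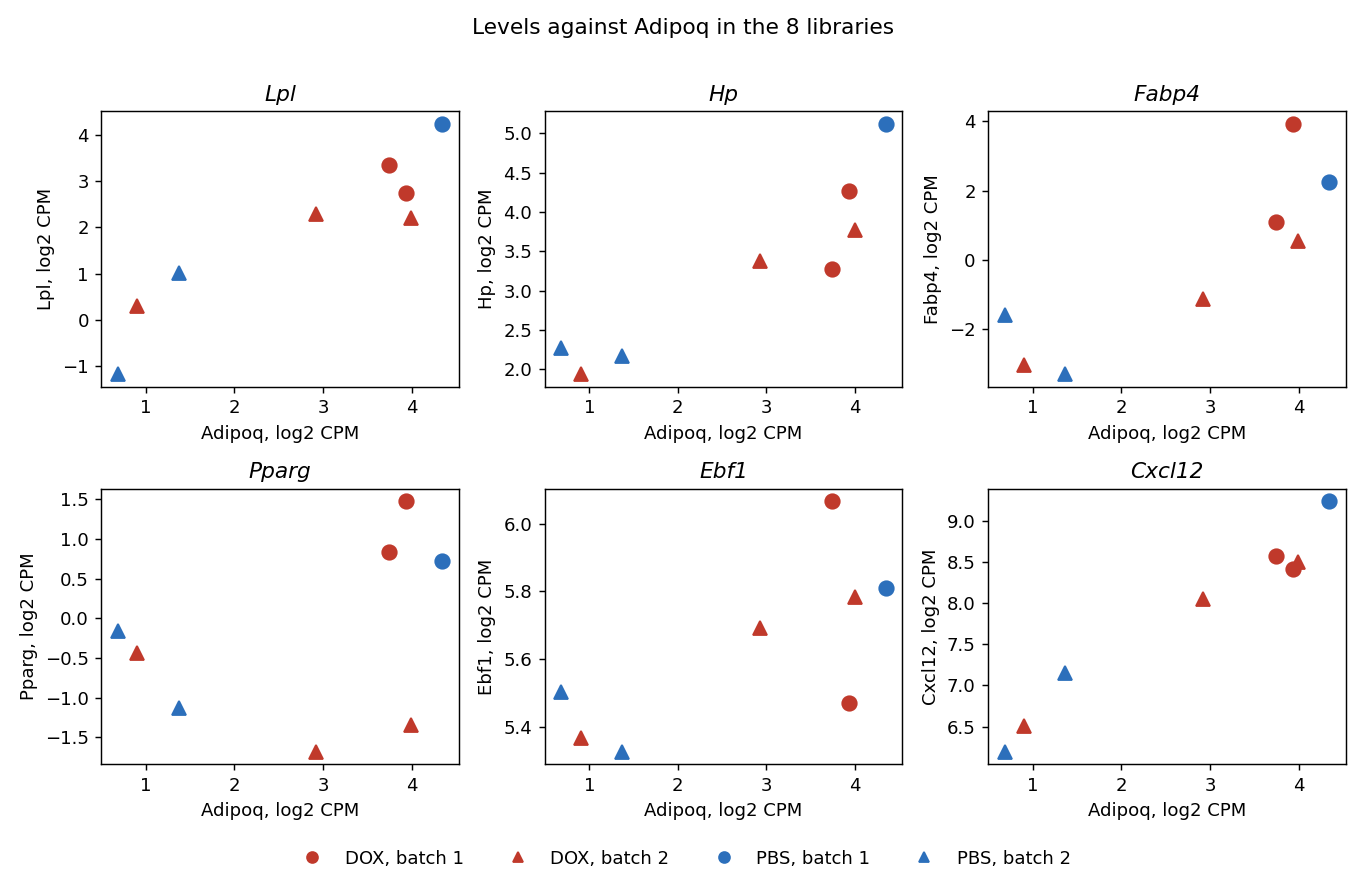
Levels of Lpl, Hp, Fabp4, Pparg, Ebf1 and Cxcl12 (log2 CPM, y axes) against Adipoq (log2 CPM, x axes) in the 8 libraries, with red for DOX, blue for PBS, circles for batch 1 and triangles for batch 2. Cxcl12, Lpl and Hp are high where Adipoq is high, while Pparg is high in the 3 batch 1 libraries and lowest in DOX replicates 4 and 5.

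The 20 genes of reticular and adipogenic-lineage stroma, a list that includes Cxcl12, summed to 2103, 2532, 1674, 2287 and 2184 CPM in DOX replicates 1 to 5, against 3061, 1893 and 1838 CPM in PBS replicates 1 to 3. None passed between DOX and PBS, 10 of 20 were above 0, and the median log2 fold change was 0.031. Chrdl1, which encodes a BMP antagonist, had 0.83 ± 0.34 (SE, unadjusted p of 0.0335 in edgeR), and the membrane protein genes Tmem176b and Tmem176a, those of highest mean, had -0.042 ± 0.18 and -0.012 ± 0.14. Between batches, 12 of 20 were higher in batch 1 at an unadjusted p under 0.05 in edgeR, against 7.79% of genes tested. None was lower, against 6.82%, and 0 passed after adjustment. A DOX mean below PBS in batch 1 and above it in batch 2 was found for 16 of 20, against 29.3% of genes tested. The same turn was found for 8 of 9 tested neutrophil markers and 4 of 4 megakaryocyte and platelet markers. It held for 6 of 9 complement and haptoglobin partners, 5 of 8 lipoprotein lipase partners and 5 of 9 adipokine genes. It held for 1 of 9 osteoblast markers, 1 of 10 PPAR and RXR genes and 2 of 7 endothelial markers. The turn was therefore not particular to the reticular list. For the batch-by-treatment term 14 of the 20 reticular genes had an unadjusted p under 0.05 in edgeR, against 11.7% of genes tested. After adjustment 0 passed. The unadjusted count was 3 of 9 for neutrophil markers, 3 of 4 for megakaryocyte and platelet markers and 0 of 7 for endothelial markers. The reticular list was chosen with earlier results of these data known, and its Cxcl12 varied with Adipoq, so its genes are not independent of the members. Each batch 1 difference again rests on PBS replicate 1, so these counts are a description.

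Of 9 osteoblast markers 2 were above 0 for DOX over PBS, with a median of -0.098, and none passed. Col1a1 and Col1a2 had log2 fold changes of -0.19 ± 0.36 and -0.16 ± 0.35 (SE). Across the 8 libraries, the r with Adipoq was below 0 for 8 of the 9, from -0.87 for Phex, a peptidase gene of late osteoblasts and osteocytes, to -0.40 for the bone sialoprotein gene Ibsp. It was 0.63 for Dmp1, a matrix protein gene of osteocytes, and -0.78 for Col1a1. Genes of other lists also had an r below 0, such as -0.92 for Slc2a4 and -0.79 for Bscl2. Others had an r above 0, such as 0.92 for Igfbp4. The share of all genes with an r below 0 is not given, nor is r with batch means removed for the osteoblast markers. The count is therefore a description and does not set osteoblast genes apart from others. PBS replicate 1 was lowest in collagen share and highest in Adipoq.

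**Figure D4:**
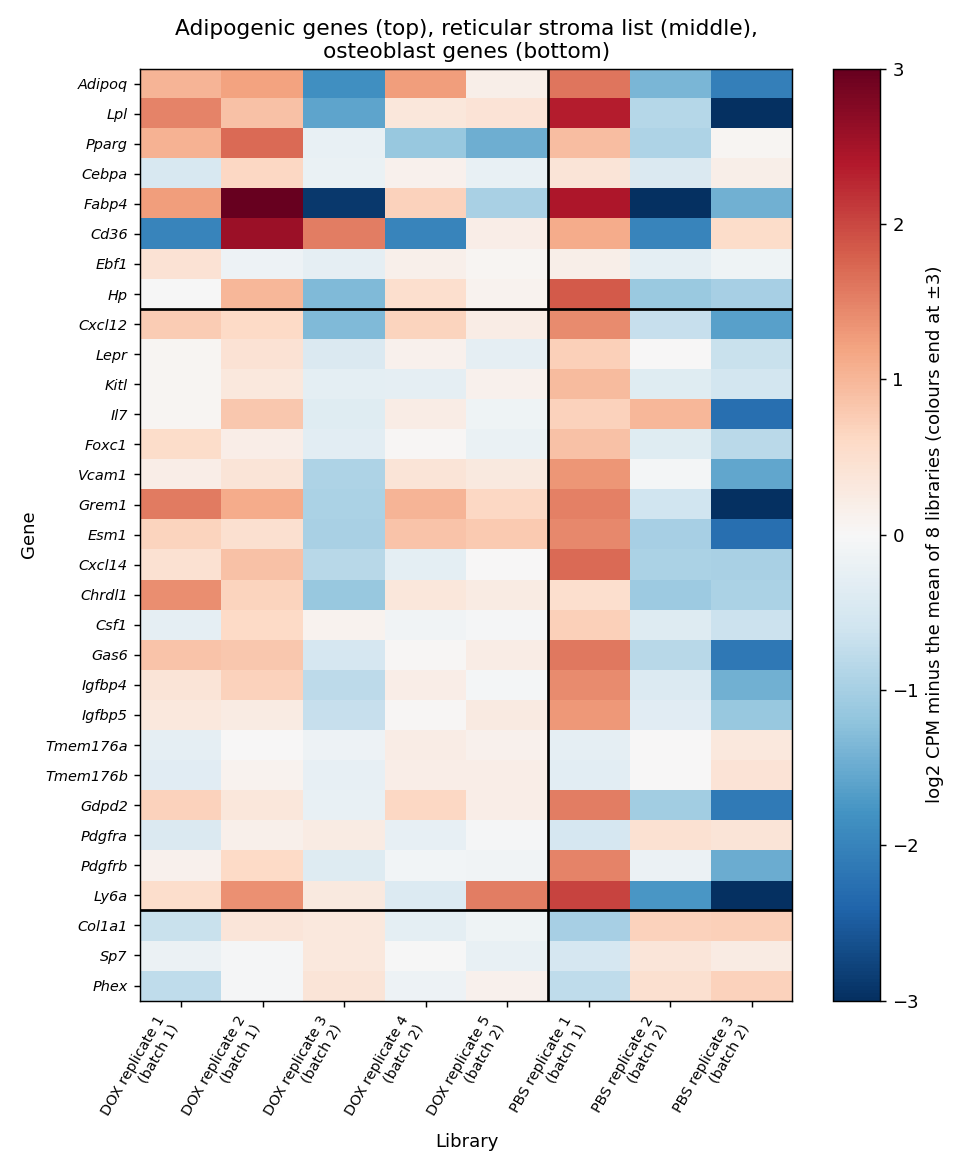
Log2 CPM minus the mean of the 8 libraries (colour scale, ending at 3 in both directions) for the 8 tested adipogenic genes (top), the 20 genes of the reticular stroma list (middle) and 3 of the 9 osteoblast markers, all with a negative r with Adipoq (bottom), with the DOX libraries left of the vertical line and the PBS libraries right of it. PBS replicate 1 lies above the mean for all 8 adipogenic genes, and DOX replicate 3 and PBS replicates 2 and 3 lie below it for Adipoq, Lpl, Fabp4 and Hp.

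The partners of PPARG, the C/EBP factors and EBF1 were measured in the same libraries, and none passed between DOX and PBS. In the PPAR and RXR family 2 of 10 tested genes were above 0, with a median of -0.14. The log2 fold change was -0.12 ± 0.11 (SE) for the corepressor gene Ncor1 and -0.096 ± 0.17 for Rxra, which encodes a dimer partner of PPARG. In the C/EBP family 2 of 4 were above 0, with a median of 0.049. Cebpb, which acts early in adipogenesis, had 0.20 ± 0.17, and Cebpg -0.10 ± 0.15. Among EBF genes and their zinc finger partners 2 of 6 were above 0, with a median of -0.063. Zfp521, whose product binds EBF1 and opposes adipogenesis, had -0.40 ± 0.25, and the preadipocyte factor gene Zfp423 -0.12 ± 0.19.

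Of the other adipogenic regulators 4 of 10 were above 0, with a median log2 fold change of -0.041, and none passed. Stat5a, a cytokine response factor that promotes adipogenesis, averaged 10.3 ± 1.09 CPM in DOX and 13.5 ± 1.24 CPM in PBS (SD, n = 5 and 3). Its log2 fold change was -0.38 ± 0.15 (SE), with an unadjusted p of 0.0295 in edgeR. The Kruppel-like factor genes Klf9 and Klf4 had -0.026 ± 0.11 and -0.056 ± 0.28. Of the inhibitors of adipogenesis 2 of 8 were above 0, with a median of -0.12. Klf2, whose product represses Pparg, had 0.20 ± 0.16, and Wwtr1, which encodes the PPARG corepressor TAZ, -0.27 ± 0.13.

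In the lists of fat storage none passed either. Of the lipid droplet and lipolysis genes 5 of 10 were above 0, with a median log2 fold change of -0.026. Plin3, a perilipin gene of many tissues, had 0.16 ± 0.12 (SE), and the seipin gene Bscl2 0.069 ± 0.18. In triglyceride synthesis 2 of 7 were above 0, with a median of -0.12. Acsl1, which encodes a long-chain acyl-CoA synthetase, had -0.44 ± 0.19 (unadjusted p of 0.0447 in edgeR), and the acyltransferase genes Gpam and Dgat1 had 0.14 ± 0.23 and 0.20 ± 0.14. Of the fatty acid carriers 4 of 8 were above 0, with a median of -0.060. The lipoprotein receptor gene Scarb1 had -0.13 ± 0.17, and Fabp3, the carrier gene of heart and muscle, 0.16 ± 0.13.

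The partners of the secreted members did not pass. Of the lipoprotein lipase partners 3 of 8 were above 0, with a median log2 fold change of -0.099, and the receptor genes Lrp1 and Vldlr had -0.27 ± 0.17 and 0.15 ± 0.18 (SE). Of the alternative complement and haptoglobin partners 2 of 9 were above 0, with a median of -0.087. Lrp1 is on this list too. Of the adipokines and adiponectin receptors 5 of 9 were above 0, with a median of 0.087. The receptor gene Adipor1 had 0.087 ± 0.13, and the angiotensinogen gene Agt -0.20 ± 0.17.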

How the data were processed

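Poly(A) RNA was sequenced from 8 libraries (SMART-Seq v4 Plus kit), per the labels' protocols; the kit does not mark strand. The authors deposited raw read counts per gene symbol. The submitters' processing notes name STAR 2.7.9a, featureCounts 2.0.1, SAMtools 1.17, Trim Galore 0.6.6, MultiQC 1.7 and FastQC 0.11.5, and build GRCm39. The gene annotation and strand setting were not given in the labels or notes. No gene had a total under 10 counts. Reads of overlapping or antisense genes cannot be told apart. The edgeR intervals include the spread between libraries. The pooled Plin1 interval and the pooled Cfd ratio cover counting error only, and may understate it, since PCR reads are not independent molecules.

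Groups came from titles and batches from the labels. Counts were tested in R 4.3.3 with edgeR 4.0.16 (quasi-likelihood, TMM, filterByExpr with a minimum count of 10, terms for batch and group, two-sided, Benjamini-Hochberg adjustment over 15373 genes, threshold 0.05). Alternatives used DESeq2 1.42.0, limma-voom 3.58.1, RLE scaling, other filters, no batch term, the replicate number as a block, single batches, DOX replicate 1 counted as PBS, and libraries left out. Log2 CPM has a prior count of 2. Figures used Python 3.11.15 and matplotlib 3.10.9. Titles call the replicates biological but name no mice, so p-values measure the spread between these libraries. No pair of libraries agreed within sampling noise.

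The members and the 20 other lists were chosen with earlier results of these data known, and the batch comparison was added after values were seen. From each list the text names up to 3 genes with an unadjusted p under 0.05 and the 2 tested genes of highest mean; for Adipoq it names the 5 genes most like it. A gene that this rule names is not reported here. Bglap, Phex, Ibsp, Dmp1, Cdh5 and C1qa, and the osteoblast genes of the heat map, were named after their values were seen. The planned permutation test of correlations with Adipoq is not given, because the libraries fall into 3 low and 5 high. Exon lengths and promoters are from build GRCm38, not the build of the counts, so no position was joined to a count.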

Additional observations from a re-analysis of the deposited data

Results flagged for a closer look

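In the 5 DOX libraries, 2 of the 10 genes had a library far from the others. Fabp4 stood at 15.2 CPM in DOX replicate 2, and the gap to the next DOX library was most of the range. Plin1 stood at 0.141 CPM, or 7 counts, in DOX replicate 1, with a like gap. In normally distributed values such a gap is found by chance in about 1 in 20 groups. The linear CPM of these 2 genes are skewed, with Plin1 at 0 in several libraries, so that rate cannot be applied to them. The endothelial marker sum was 27.7 CPM in DOX replicate 2, the highest of all libraries, and its part in the Fabp4 value was not tested.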

How the results depend on the processing

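No member passed in edgeR, DESeq2 or limma-voom under any alternative. No batch-by-treatment term of a member passed in the edgeR fits run, which were those with RLE scaling, the other filters, DOX replicate 1 counted as PBS, and each library but PBS replicate 1 left out; without PBS replicate 1 the term could not be fitted. Of all genes, edgeR called 0 (571 at an unadjusted p under 0.05), DESeq2 26, and edgeR in batch 1 alone, with 1 PBS library, 96; the other alternatives gave 0. Signs of members, none of them called, turned as follows on the log2 scale. With no batch term Lpl was -0.37, Pparg 0.27 and Hp -0.38. In limma-voom Lpl was -0.43, Pparg 0.15, Cd36 -0.68 and Hp -0.42. In batch 1 alone Adipoq was -0.53, Lpl -1.19, Pparg 0.47, Ebf1 -0.035 and Hp -1.28, and in batch 2 alone Cebpa was 0.016. With DOX replicate 1 counted as PBS, Cebpa was 0.23 and Ebf1 -0.032. With the replicate number as a block, Pparg was 0.78 and Hp -0.081, and 0 genes were called. Libraries of the same number deviated together with correlations of 0.25, -0.054 and 0.24, and not every library correlated best with its own number, so the numbers do not pair them. With 1 library left out, Lpl ran from -0.29 to 1.58, Pparg from -0.53 to 0.28, Cebpa from -0.26 to 0.075 and Hp from -0.29 to 1.02, while Adipoq (0.43 to 2.05), Fabp4 (0.71 to 1.91), Cd36 (0.25 to 1.77) and Ebf1 (0.044 to 0.22) kept their sign. The batch difference of Ebf1 ran from 0.12 to 0.42. Without PBS replicate 1 and DOX replicate 1, chosen after seeing the data, Cebpa was 0.014 and the batch difference of Ebf1 -0.15. With batch means removed the r of Pparg with Adipoq was -0.75. The cause was not tested. Depth limits Plin1, Cfd and Cd36, with 12, 32 and 97 counts in all, and Cd36 was not tested under the stricter filter, in batch 2 alone, with DOX replicate 1 counted as PBS, or without DOX replicate 2 or 3.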
